A study of Mus musculus with 9 samples.

Results

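Toll-like receptors are membrane proteins that sense microbial molecules and products of damaged tissue, and the genes described here encode receptors, adaptors, kinases and nuclear effectors of this route. Ligand-bound receptors recruit the adaptor MyD88, which assembles IRAK kinases and the ubiquitin ligase TRAF6. These activate the IkappaB kinase complex, which marks the inhibitor IkappaB-alpha for destruction and so lets NF-kappaB dimers that contain RelA enter the nucleus. In skin the route operates in keratinocytes as well as in resident and recruited leukocytes, and the interleukin-1 receptor uses the same adaptor and kinases. The 8 genes were chosen by name along this chain, with earlier results of these data known. The receptors are Tlr2 and Tlr4, the adaptor is Myd88, the kinase is Irak1 and the ligase is Traf6. The others are the IkappaB kinase subunit Ikbkb, the NF-kappaB subunit Rela and the inhibitor Nfkbia. Together these were 8 of the 10554 genes that the annotation names, and 16 of the 42624 features on the array.

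The RNA came from distal tail skin of 3-week-old female SKH-1 mice, a hairless immunocompetent strain, on day 14. Lymphedema was produced by a skin incision around the tail with methylene blue injection and cautery of the lymphatic trunks. Surgical sham mice had the incision and the dye without cautery, and normal mice had no surgery. Each state was represented by 3 pools of 3 mice, and each pool was hybridized once to a 2-color cDNA array against RNA of e17.5 whole embryos. P-values therefore describe the spread between pools, and n = 3 limits the precision throughout. A pool hides the spread between mice, and in whole skin more cells of a type and more RNA per cell cannot be told apart.

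Values are log2 ratios of tail skin over embryo reference, centered on the median of each array, so that a positive value means more RNA in tail skin than in the embryo. The sample labels put tail skin in Cy5 and the methods put it in Cy3. The direction used here opposes that of the labels' dyes: the deposited values were taken as embryo relative to tail, and every sign was reversed. After this the 27 or 28 embryo genes examined had array medians of −3.52 to −2.77 and the 13 adult skin genes had medians of 2.02 to 2.74. The log base is not stated and was read as 2, so fold changes rest on that reading. Levels of different genes are not comparable on this scale, because the embryo's level differs by gene. A group of 12 keratinocyte genes averaged 2.02 to 2.4 on lymphedema arrays, 2.15 to 2.21 on sham arrays and 1.85 to 2.18 on normal arrays, all above the embryo reference. One feature of the table divides the arrays. For 186 features, lymphedema array 1 and the 3 normal arrays had values while the remaining 5 arrays had none, against 1 feature with the reverse pattern. What sets these arrays apart is not stated, so results for lymphedema against normal skin are also given with this division as a block, a fit in which that contrast rests on lymphedema array 1 alone.

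Differences were tested with limma over the 8644 genes that had a value on all 9 arrays, and a gene passed if its p, adjusted by Benjamini-Hochberg over all of these genes, was under 0.05. Of the 8 genes, 7 could be tested in this way. Traf6 lacked a value on sham array 2 and was tested in a second fit of 10036 genes with values on at least 2 of 3 arrays per state. Where a gene had several clones, their mean was used.

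Myd88, which links the receptors to the IRAK kinases, was the 1 gene of the 7 that passed between lymphedema and normal skin. It was read by 1 clone, so no other clone could be set beside its values. Among all genes 3.44% passed in this comparison, and 2.83% passed as higher. Myd88 measured 2.49, 2.08 and 1.96 in lymphedema skin, 2.22, 1.96 and 1.79 in sham skin, and 0.91, 1.22 and 1.38 in normal skin. All 6 arrays from operated tails lay above all 3 normal arrays, and the lymphedema and sham arrays overlapped. The mean was 2.17 ± 0.279 in lymphedema and 1.17 ± 0.237 in normal skin (SD, n = 3 each), a difference of 1.01 with a standard error of 0.207 and a 95% interval of 0.552 to 1.46. This is 2.01-fold on the log2 reading, with an adjusted p of 0.0288 by limma, and Myd88 ranked 188 of 8644 genes by difference, counted from the highest. The authors list MYD88 among genes whose differential expression, by their report, was borne out by quantitative RT-PCR. Their figure comparing the 2 methods states a log of 0 for MYD88 by microarray, relative to normal skin. That array value differs from the value here, and the reason was not tested. The rise held under each other scaling, and it did not pass when any lymphedema or normal array was left out. Leaving out lymphedema array 1, 2 or 3 gave differences of 0.848, 1.05 and 1.11, and leaving out normal array 1, 2 or 3 gave 0.876, 1.03 and 1.11, with adjusted p of 0.0505 to 0.122 by limma. Calls fell over all genes in these fits, from 245 passing as higher with all arrays. Without lymphedema array 1, 2 or 3 they were 17, 9 and 64, and without normal array 1, 2 or 3 they were 11, 10 and 56. For Myd88 the difference thus stayed near that of the full fit. With the division of the arrays by missing values as a block it was 1.32 with an adjusted p of 0.184 by limma, and in that fit 0 genes of 8644 passed.

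In sham against normal skin, Myd88 differed by 0.822 with a standard error of 0.207 and did not pass (limma adjusted p = 0.297, unadjusted p = 0.00206). By difference it ranked 115 of 8644 genes from the highest. In this comparison 0% of genes passed by limma, while 7.92% had an unadjusted p under 0.05, and SAM called 21 genes, none of them among the 7 tested here. The 3 sham arrays lay above the 3 normal arrays, a separation found for 9.72% of genes. Between lymphedema and sham skin, where 0.0231% of genes passed and 7.44% had an unadjusted p under 0.05, the difference of Myd88 was 0.184 with a 95% interval of −0.27 to 0.637 (limma adjusted p = 0.86). The interval holds both 0 and values well above the estimate, so the data do not order the 2 operated states.

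**Figure D1:**
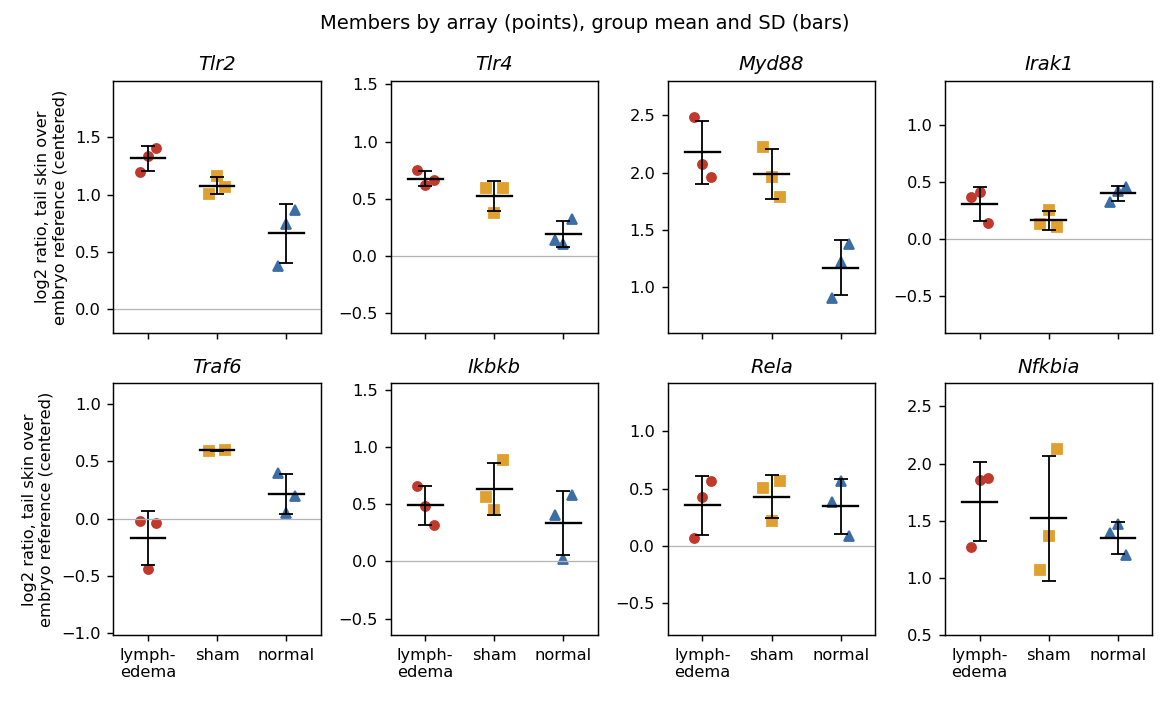
Log2 ratio of tail skin over embryo reference (vertical axis, each panel spanning the same range) for each of the 8 genes on the arrays of lymphedema, sham and normal skin (horizontal axis). Points are arrays, the horizontal line is the mean of a state and the bar its SD, and Myd88 lies at 1.96 to 2.49 in lymphedema against 0.91 to 1.38 in normal skin.

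Tlr2, which recognizes bacterial lipoproteins as a dimer with Tlr1 or Tlr6, was read by 3 clones. Their mean was 1.2, 1.34 and 1.41 in lymphedema skin, 1.01, 1.16 and 1.07 in sham skin, and 0.375, 0.748 and 0.871 in normal skin. The 3 states did not overlap, with lymphedema highest and normal lowest. The difference of lymphedema from normal skin was 0.649 with a standard error of 0.177 and a 95% interval of 0.26 to 1.04 and did not pass (limma adjusted p = 0.0743). It passed without sham array 3, where the difference was the same 0.649 and the limma adjusted p was 0.0481. Sham differed from normal skin by 0.414 (limma adjusted p = 0.586), and lymphedema from sham skin by 0.235 (limma adjusted p = 0.778).

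The Tlr2 clones did not read alike. Clone AV084072 measured 1.61, 1.84 and 1.69 in lymphedema skin, 0.606, 0.603 and 1.06 in sham skin, and −0.153, −0.078 and 0.025 in normal skin. Its 3 states were far apart with no overlap. Among all clones 21.7% were separated as higher between lymphedema and normal skin, 8.58% between sham and normal skin and 5.39% between lymphedema and sham skin. Across the 30702 clones tested, of which 2.94% passed in lymphedema against normal skin, this clone rose by 1.78 with a standard error of 0.224 and a limma adjusted p of 0.000996. It passed with any single array left out, with differences of 1.72 to 1.83. With the division by missing values as a block it stood at 1.67 with a limma adjusted p of 0.114. Sham against normal skin gave 0.825 for the same clone (limma adjusted p = 0.289), in a comparison where 0.0195% of clones passed. Lymphedema against sham skin gave 0.955 (limma adjusted p = 0.336), where 0.00326% of clones passed, and without sham array 3 this became 1.11 with an adjusted p of 0.0277. Clone D77677 differed by 0.229 between lymphedema and normal skin (limma adjusted p = 0.678) and clone AF124741 by −0.0623 (limma adjusted p = 0.936), with overlapping arrays in both. The sequences of the clones were not used here, so which transcript each one reads was not examined.

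**Figure D2:**
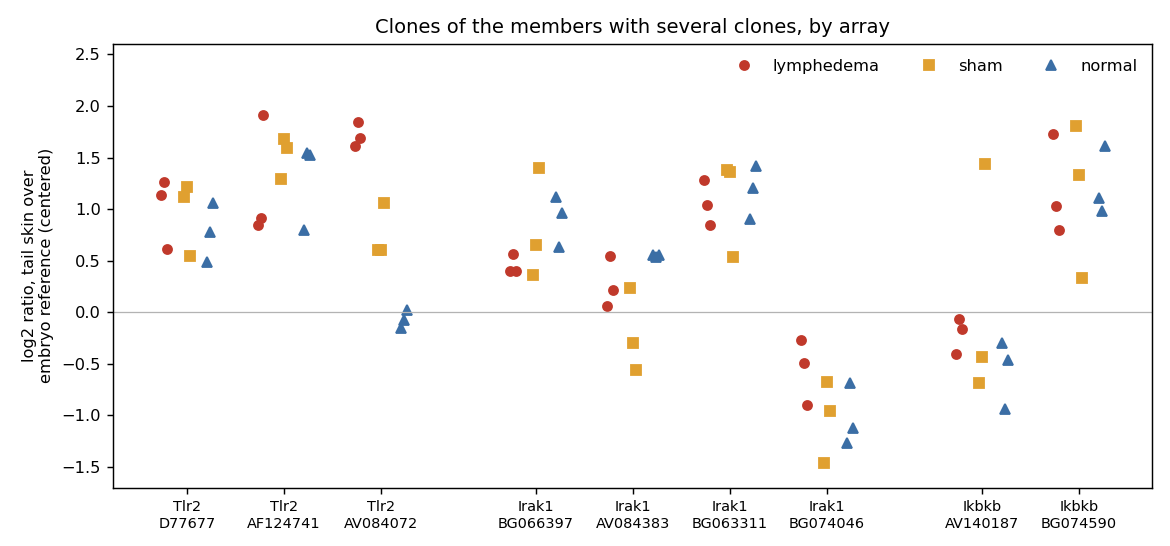
Log2 ratio of tail skin over embryo reference (vertical axis) for each clone of Tlr2, Irak1 and Ikbkb with a value on all 9 arrays (horizontal axis), with circles for lymphedema, squares for sham and triangles for normal skin. Clone AV084072 of Tlr2 separates the 3 states, at 1.61 to 1.84 in lymphedema, 0.603 to 1.06 in sham and −0.153 to 0.025 in normal skin, and sham array 3 stands at 1.44 for Ikbkb clone AV140187.

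Tlr4, the receptor for bacterial lipopolysaccharide, was tested by 1 of its 2 clones. It measured 0.75, 0.623 and 0.661 in lymphedema skin, 0.599, 0.375 and 0.598 in sham skin, and 0.144, 0.108 and 0.323 in normal skin. Lymphedema arrays were highest and normal arrays lowest, without overlap of the 3 states. The difference of lymphedema from normal skin was 0.486 with a standard error of 0.16 and did not pass (limma adjusted p = 0.118). Sham differed from normal skin by 0.332 (limma adjusted p = 0.645) and lymphedema from sham skin by 0.154 (limma adjusted p = 0.847). The other clone, AV290711, had no value on any sham array and lay at −0.306, −0.009 and 0.049 in lymphedema against −0.394, −0.332 and −0.854 in normal skin, a difference of 0.438 that was not tested.

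Tlr2, Tlr4 and Myd88 thus made up the 3 of 7 genes whose lymphedema arrays all lay above all normal arrays. For Tlr2 this held for the mean of 3 clones and, among those clones, for AV084072 only. Among all genes 23.6% showed this separation, so 3 of 7 is a small count to set against a common pattern. The same 3 genes were separated as higher between sham and normal skin, as were 9.72% of all genes, in a comparison that shares the normal arrays. Between lymphedema and sham skin Tlr2 and Tlr4 were separated as higher, as were 6.63% of all genes. The median difference of lymphedema from normal skin over the 7 genes was 0.31, beside 0.103 over all genes.

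Markers of macrophages, which carry both receptors, moved in the same comparison, in which 3.44% of all genes passed and 2.83% passed as higher. Of 14 macrophage genes measured, 7 rose between lymphedema and normal skin, namely Aif1, C1qa, C1qc, Ccr2, Fcer1g, Fcgr1 and Lyz2, and the list averaged 0.36 to 0.454 on lymphedema arrays against −0.698 to −0.589 on normal arrays. Cd68 and Adgre1, both classical macrophage markers, differed by 0.487 and 0.782 and did not pass (limma adjusted p of 0.212 and 0.155). Of the 14 differences 13 lay above 0, and that of Csf1r lay below, at −0.0603 (limma adjusted p = 0.924). In sham against normal skin 0 of the 14 passed by limma, and the sham arrays ran from −0.737 to 0.232. Of 4 neutrophil genes 1 rose between lymphedema and normal skin. The list averaged 0.591 to 0.888 in lymphedema, 0.418 to 0.663 in sham and 0.174 to 0.234 in normal skin. Of the 12 keratinocyte genes 0 passed by limma. Of 5 endothelial genes 1 rose, Kdr, and 4 were separated as higher. The list lay at −0.103 to −0.0188 in lymphedema, −0.536 to −0.0492 in sham and −0.863 to −0.554 in normal skin. Of 7 fibroblast genes 0 passed by limma, 5 were separated as higher and 1 as lower. The list lay at −1.17 to −0.892 in lymphedema, −1.57 to −0.867 in sham and −1.5 to −1.35 in normal skin. Of 6 mast cell genes and of 7 adipocyte genes 0 passed by limma, and 4 and 3 were separated as higher, beside 23.6% of all genes. The mast cell list averaged −0.875 to −0.739 in lymphedema, −1.51 to −0.796 in sham and −1.36 to −1.1 in normal skin. For the adipocyte list these were −0.367 to −0.195, −0.479 to −0.171 and −0.563 to −0.428. Of 8 muscle genes 0 passed by limma, with the list at −4.67 to −3.91 in lymphedema, −4.3 to −2.6 in sham and −4.81 to −4.31 in normal skin. The 1 T cell gene measured, Cd8a, differed by 0.123 between lymphedema and normal skin (limma adjusted p = 0.778). The part of these cells in the differences of Myd88, Tlr2 and Tlr4 was not tested.

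**Figure D3:**
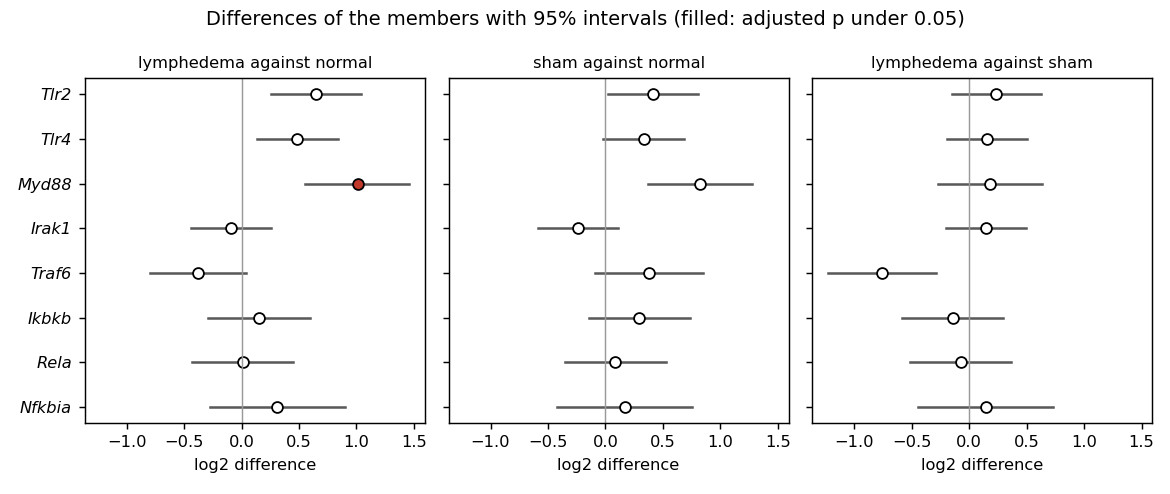
Differences on the log2 scale with 95% intervals (horizontal axis) for the 8 genes (vertical axis), with lymphedema against normal, sham against normal and lymphedema against sham in 3 panels. A filled point marks an adjusted p under 0.05, which Myd88 reached in lymphedema against normal skin at 1.01, and Traf6 comes from the second fit.

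Irak1, a kinase that MyD88 brings to the receptor, did not differ detectably. The mean of its 4 clones with complete values was 0.367, 0.414 and 0.141 in lymphedema skin, 0.13, 0.258 and 0.104 in sham skin, and 0.326, 0.42 and 0.456 in normal skin. The lymphedema arrays overlapped the others, while the sham arrays all lay below the normal arrays, a separation that 3.09% of genes showed. Lymphedema differed from normal skin by −0.0935 with a standard error of 0.159 (limma adjusted p = 0.783), and sham from normal skin by −0.237 (limma adjusted p = 0.767). The 4 clones differed from one another, with differences of lymphedema from normal skin between −0.452 for BG066397 and 0.469 for BG074046, neither of which passed. The fifth clone, AV026086, lacked a value on sham array 3 and was higher by 0.473 in lymphedema than in normal skin, without a test.

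Traf6, the ubiquitin ligase downstream of the IRAK kinases, had 1 clone. It measured −0.022, −0.437 and −0.037 in lymphedema skin, 0.592 and 0.598 on the 2 sham arrays with a value, and 0.397, 0.052 and 0.197 in normal skin. The lymphedema arrays lay below all others. Among the 8644 genes with complete values 10.2% were separated as lower between lymphedema and normal skin. Separation from sham skin rests on 2 sham arrays, and its share was not counted in the second fit. Lymphedema differed from normal skin by −0.381 with a standard error of 0.189 (limma adjusted p = 0.307) and from sham skin by −0.76 with a standard error of 0.211 (unadjusted p = 0.00466, limma adjusted p = 0.466). In the fit used for Traf6, 0 of 10036 genes passed as higher and 1 as lower between lymphedema and sham skin. Sham differed from normal skin by 0.38 (limma adjusted p = 0.708).

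The genes nearest to NF-kappaB were measured without a detectable difference. Rela and Nfkbia had 1 clone each. Ikbkb, the catalytic subunit that acts on IkappaB in the classical route, stood at 0.661, 0.485 and 0.318 in lymphedema skin, 0.561, 0.447 and 0.883 in sham skin, and 0.408, 0.024 and 0.575 in normal skin. Its states overlapped, and lymphedema differed from normal skin by 0.152 (limma adjusted p = 0.715). Of its 2 clones, AV140187 read 1.44 on sham array 3 against −0.684 and −0.436 on the other 2 sham arrays.

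Rela, which encodes the p65 subunit, read 0.067, 0.428 and 0.565 in lymphedema skin, 0.504, 0.214 and 0.569 in sham skin, and 0.384, 0.564 and 0.084 in normal skin. The states overlapped fully, and the difference of lymphedema from normal skin was 0.00933 with a 95% interval of −0.432 to 0.45 (limma adjusted p = 0.985). Changes of Rela RNA in either direction within that interval remain compatible with the data. The interval is not a limit of detection, and larger changes could also miss the threshold.

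Nfkbia, itself a target of NF-kappaB that restores the block, read 1.27, 1.86 and 1.87 in lymphedema skin, 1.07, 1.37 and 2.13 in sham skin, and 1.39, 1.47 and 1.2 in normal skin. The states overlapped, with sham array 3 the highest of the 9 arrays and sham array 1 the lowest. Lymphedema differed from normal skin by 0.31 with a standard error of 0.269 (limma adjusted p = 0.551). These 3 genes act largely through protein phosphorylation, location and turnover, which RNA does not report.

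The promoters of the genes are shown where they hold a known motif, because Nfkbia is a target of NF-kappaB and the interferon-type repeat marks promoters bound by IRF proteins. Promoter sequences, from 250 bases before to 50 after a transcript start annotated by RefSeq on GRCm38.p6, were matched for 6 of the 8 genes, Tlr2, Myd88, Irak1, Traf6, Rela and Nfkbia. Both strands were searched for the kappa B consensus and for the repeat GAAANNGAAA. Capitals mark the matches, and each sequence runs 5′ to 3′ along the gene. Tlr2 lies at chr3:83841559-83841858, Myd88 at chr9:119339969-119340268 and Nfkbia at chr12:55492598-55492897, all on the minus strand. The start used for Tlr2 lies inside the annotated span of the gene, which ends at position 83841824.
Tlr2: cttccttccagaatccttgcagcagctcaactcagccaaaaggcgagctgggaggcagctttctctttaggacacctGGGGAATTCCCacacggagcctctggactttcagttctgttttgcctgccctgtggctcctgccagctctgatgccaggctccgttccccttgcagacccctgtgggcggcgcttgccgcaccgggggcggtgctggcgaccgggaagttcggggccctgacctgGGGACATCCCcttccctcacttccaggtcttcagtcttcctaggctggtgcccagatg
Myd88: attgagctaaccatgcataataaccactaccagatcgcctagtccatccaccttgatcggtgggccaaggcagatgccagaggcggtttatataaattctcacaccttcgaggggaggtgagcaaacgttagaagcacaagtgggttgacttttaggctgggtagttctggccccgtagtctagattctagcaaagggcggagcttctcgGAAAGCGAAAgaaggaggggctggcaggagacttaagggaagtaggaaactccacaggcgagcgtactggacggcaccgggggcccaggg
Nfkbia: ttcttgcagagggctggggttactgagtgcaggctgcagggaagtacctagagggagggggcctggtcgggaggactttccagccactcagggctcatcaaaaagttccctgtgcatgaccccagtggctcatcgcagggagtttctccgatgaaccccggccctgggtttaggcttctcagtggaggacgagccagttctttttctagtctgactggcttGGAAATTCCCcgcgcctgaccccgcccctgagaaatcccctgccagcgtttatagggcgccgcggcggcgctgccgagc
The Tlr2 promoter held 2 stretches that match the kappa B consensus, the first through overlapping matches that begin 173 and 172 bases before the start and the second 8 bases before it. The Nfkbia promoter held 1 match, read on the opposite strand, that begins 29 bases before the start. The consensus occurs in 4.51% of 32851 mouse promoters of this length. Myd88 held no kappa B match and 1 copy of GAAANNGAAA that begins 40 bases before the start, a repeat found in 3.44% of promoters. Neither motif was found in the windows of Irak1, Traf6 and Rela, which says only that these letters are not there. Of the 2 genes with a kappa B match, Tlr2 differed by 0.649 and Nfkbia by 0.31 between lymphedema and normal skin, neither past the threshold.

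The rest of the pathway was followed through 129 further genes in 7 lists, of which 65 were measured on all 9 arrays. Between lymphedema and normal skin 8 of the 65 rose and 0 fell by limma, which is 12.3% beside 3.44% of all genes. The lists were chosen with earlier results of these data known. The authors had already discussed calgranulin B, tenascin C, biglycan and lipocalin among their induced genes. The excess over all genes is therefore a description and not an independent result. Of the 8, 4 were in 1 list, the endogenous ligands, which are host proteins reported to engage Tlr2 or Tlr4. Irf7, Lcn2, Tnc, Bgn, Unc93b1 and Ube2v1 were each read by 1 clone with complete values, S100a8 by 2 and S100a9 by 3. The median difference over the 65 genes was 0.0741, below the 0.103 of all genes, so the rises lay in few members. In sham against normal skin 0 of the 65 passed by limma, and their median was 0.258 beside 0.0581 for all genes. Over all genes 245 passed as higher with all arrays, 9 to 64 without a lymphedema or normal array, and 484 without sham array 3. The pathway count moved with single arrays too. Leaving out lymphedema array 1, 2 or 3 gave 4, 2 and 4, leaving out normal array 1, 2 or 3 gave 2, 2 and 5, and leaving out sham array 3 gave 16, and Irf7 and S100a8 passed in each of these fits. With the division by missing values as a block it was 0, as for all genes.

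Of 12 endogenous ligand genes 4 rose between lymphedema and normal skin. S100a9, a calgranulin that pairs with S100a8, measured 2.01, 2.79 and 2.91 in lymphedema skin, −1.54, −0.616 and 2 in sham skin, and −2.33, −2.09 and −1.7 in normal skin. Lymphedema differed from normal skin by 4.61 with a standard error of 0.676 (limma adjusted p = 0.0137), and sham array 3 lay close to lymphedema while the other 2 sham arrays did not. S100a8 measured 1.79, 2.13 and 2.01 in lymphedema skin, −0.078, −0.067 and 1.08 in sham skin, and −1.03, −0.929 and −0.582 in normal skin, a rise of 2.83 against normal skin (limma adjusted p = 0.00158). Tnc, the matrix protein tenascin C, rose by 2.54 (limma adjusted p = 0.0435), with 1.29 on sham array 3 against −1.44 and −1.43 on the others. Bgn, the proteoglycan biglycan, rose by 1.62 (limma adjusted p = 0.0275). In sham against normal skin these 4 genes differed by 1.98, 1.16, 1.47 and 1.13 in the order given, none past the threshold. Calgranulins are abundant in neutrophils and in stressed keratinocytes, and the share of either cell in these values was not tested.

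Among 6 receptor and coreceptor genes 1 rose. Unc93b1, the chaperone that carries nucleic acid sensing receptors to endosomes, measured 1.51, 1.4 and 1.53 in lymphedema skin, 1.05, 0.173 and 0.917 in sham skin, and 0.124, 0.079 and 0.569 in normal skin. Its rise against normal skin was 1.22 (limma adjusted p = 0.0275), and the sham arrays overlapped the normal ones. The median difference of the 6 was 0.99, beside 0.103 over all genes, and 5 of them had lymphedema arrays above all normal arrays, as had 23.6% of all genes.

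Among 9 further adaptors and kinases 1 rose. Ube2v1, a noncatalytic partner in the ubiquitin chain formation that TRAF6 directs, measured 0.598, 0.781 and 0.567 in lymphedema skin, 0.625, 0.268 and 0.278 in sham skin, and −0.159, −0.173 and −0.191 in normal skin. It rose by 0.823 against normal skin (limma adjusted p = 0.0288), and its operated arrays all lay above the normal ones. The other 8 genes did not pass, and the median of the 9 was 0.0393.

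Of 9 genes of the MAP kinase and interferon regulatory factor branches 1 rose. Irf7, which drives type I interferon genes downstream of MyD88 in endosomal signaling, measured 1.83, 1.83 and 2.22 in lymphedema skin, 0.521, −0.07 and 0.617 in sham skin, and 0.129, −0.006 and 0.007 in normal skin. Lymphedema stood above sham and normal skin without overlap, while sham and normal overlapped. The rise was 1.92 against normal skin (limma adjusted p = 0.00256) and 1.61 against sham skin (limma adjusted p = 0.0371), the 1 pathway gene that passed against sham skin. That call did not pass when any other single array than sham array 3 was left out, and without sham array 3 the count of pathway genes was 7.

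Of 16 NF-kappaB target genes 1 rose and 15 did not pass. Lcn2, lipocalin 2, which binds bacterial siderophores, measured 0.659, 1.26 and 1.39 in lymphedema skin, −1.58, −0.605 and 0.678 in sham skin, and −1.78, −1.74 and −1.66 in normal skin. It rose by 2.83 against normal skin (limma adjusted p = 0.0137), and sham array 3 overlapped the lymphedema arrays. The median of the 16 was 0.124, close to that of all genes.

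Of 10 further genes of the IkappaB kinase and NF-kappaB group 0 passed by limma. The lymphedema arrays were separated from normal as higher for 3 of them and as lower for 3, beside 23.6% and 10.2% of all genes, and the median difference was 0.0543. The 2 with the greatest absolute difference, Tnfaip3 and Nfkbib, encode inhibitors of the route. Tnfaip3, which encodes the deubiquitinase A20, measured 0.718, −0.914 and −0.179 in lymphedema skin, 0.354, 0.287 and 1.73 in sham skin, and 0.931, 1.65 and 1.17 in normal skin. It differed by −1.38 from normal skin (limma adjusted p = 0.109) and passed without sham array 3. Nfkbib, which encodes IkappaB-beta, differed by −0.732 (limma adjusted p = 0.139). The lymphedema arrays of both lay below all normal arrays. In the other direction Ikbke, an IkappaB kinase relative, differed by 0.597 (limma adjusted p = 0.0871) and Commd1 by 0.571 (limma adjusted p = 0.114). Of 3 interleukin-1 family genes 0 passed, with Il18 at 0.223 and the receptor Il1r1 at 0.152 (limma adjusted p of 0.561 and 0.697).

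**Figure D4:**
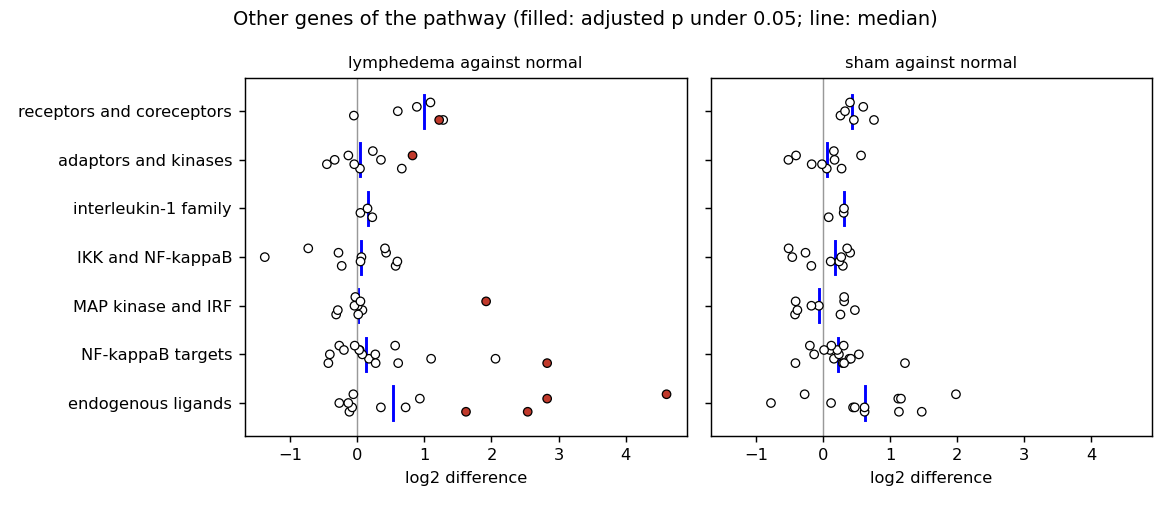
Differences on the log2 scale (horizontal axis) for the 65 further pathway genes in 7 lists (vertical axis), with lymphedema against normal skin on the left and sham against normal skin on the right. Points are genes, filled where the adjusted p was under 0.05, and lines are list medians. The 8 filled points all lie in lymphedema against normal skin, 4 of them among the endogenous ligands, up to 4.61 for S100a9.

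The genes whose values over the 9 arrays were most like those of Myd88, among 875 genes with a standard deviation of at least 0.5, were Il10rb, Csta1, Tpm4, Lama4 and Rrp7a, with Pearson r of 0.978, 0.974, 0.965, 0.965 and 0.961. The 9 points share the 3 states, so these values are a description of likeness only. Il10rb, a chain of the interleukin-10 receptor, measured 1.16, 0.632 and 0.621 in lymphedema skin, 0.88, 0.388 and 0.62 in sham skin, and −0.726, −0.425 and −0.0415 in normal skin. As for Myd88, the operated arrays lay together above the normal ones. Csta1, a cystatin A family protease inhibitor, differed by 1.46 between lymphedema and normal skin and by 0.438 between lymphedema and sham skin. None of the 5 was on a pathway list, but the filter on standard deviation bears on this. It had left out Tlr4 and Tlr2, at 0.234 and 0.319, whose r with Myd88 was 0.903 and 0.83.

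**Figure D5:**
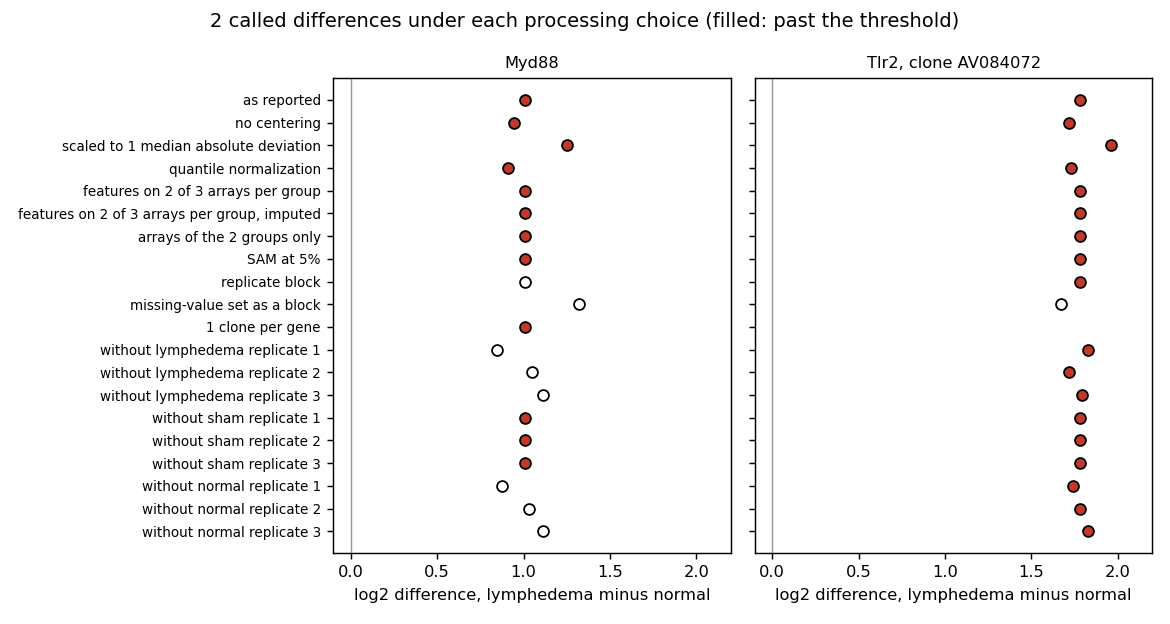
Difference of lymphedema minus normal skin on the log2 scale (horizontal axis) for Myd88 and for clone AV084072 of Tlr2 under each processing choice (vertical axis), filled where it passed the threshold. Myd88 runs from 0.848 to 1.32 and passed in 11 of 19 alternatives, and the clone runs from 1.67 to 1.96 and passed in 17 of 18.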

How the data were processed

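Gene expression was measured on 9 two-color cDNA arrays, 3 pools of 3 mice per state, against embryo RNA, and grouped by the sample labels. The authors extracted features with GenePix and applied background subtraction, dye normalization, a reference signal filter and imputation in Expressionist. The deposited values are log2 ratios (base read, not stated) of both channels with empty cells, 1.34% to 12.6% per array. Intensities were not used here, and the centering applied by the authors is unknown.

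The sign was turned, arrays were median-centered, complete clones of a gene were averaged, and limma 3.58.1 (lmFit, eBayes, state as the 1 term) was run in R 4.3.3 with Benjamini-Hochberg adjustment at 0.05. The test was checked on simulated data. The 8 genes and all lists were chosen with earlier results of these data known. Every member and clone was named, and from each list the genes past the threshold or else the 2 with the greatest difference. The 5 genes most like Myd88 and the marker counts were added by the same rule. Cd68, Adgre1, Csf1r, Ikbke and Commd1 were chosen after their values were seen. Alternatives were other scalings, filters with and without imputation, the arrays of 2 states only, SAM, blocks, 1 clone per gene and each array left out. RefSeq promoters were searched in Python 3.11.15, and figures were drawn with matplotlib 3.10.9.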

Additional observations from a re-analysis of the deposited data

How the results depend on the processing

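Of 19 alternatives, the rise of Myd88 did not pass in 8, and that of clone AV084072 did not pass in 1 of 18. In lymphedema against normal skin 1 of the 8 genes passed, and the count was 2 with scaling to the median absolute deviation, with the arrays of 2 states only and with 1 clone per gene, 3 with SAM (Myd88, Tlr2 and Tlr4), and 0 with the replicate number or the division by missing values as a block. With each array left out it ran from 0 to 2. In the fit with 1 clone per gene Tlr2 differed by 1.78, the value of clone AV084072. The totals over all 8644 genes moved as well, from 245 higher and 52 lower in the main fit. SAM called 1596 higher and 206 lower, and the arrays of 2 states only gave 614 and 228. Scaling to the median absolute deviation gave 314 and 55, and 1 clone per gene gave 324 and 88. These totals are the background for the pathway counts below too. Clones past the threshold numbered 2, and 1 without centering, with the 2 of 3 filter and with the replicate block, 0 with the division as a block, and 1 to 2 with an array left out. In lymphedema against sham skin they numbered 0, and 0 to 1 with an array left out.

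Pathway genes in lymphedema against normal skin numbered 8, and 18 with the arrays of 2 states only, 23 with SAM, 0 with the division as a block, and 2 to 16 with an array left out. In lymphedema against sham skin the 1 call became 0 without centering, with quantile normalization, with the 2 of 3 filter with or without imputation, with the arrays of 2 states only and with either block, and ran from 0 to 7 with an array left out.

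Between samples of the same number, deviations from the mean of their state had r of −0.244 to 0.279. What the numbers stand for is not stated. These r cannot decide whether samples of a number were handled together, because each state mean rests on so few arrays. With the replicate block Myd88 stayed at 1.01 with a limma adjusted p of 0.0532, and 116 genes passed as higher and 29 as lower, against 245 and 52. The split was 154 and 56 without centering and 112 and 72 with quantile normalization, which moved the median difference of all genes by −0.125. Relative to that median Myd88 differed by 0.902, and by 0.932 after quantile normalization.

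Differences near 0 changed sign, and the cause was not tested. In lymphedema against normal skin Irak1 was 0.0199 with the 2 of 3 filter, with or without imputation. Ikbkb was −0.052 with 1 clone per gene and −0.00367 to 0.272 with an array left out, and with 1 clone −0.0813 in sham against normal and 0.0293 in lymphedema against sham skin. Rela in lymphedema against normal skin was −0.052 without centering, −0.00981 with quantile normalization and −0.277 with the division as a block, and −0.121 to 0.153 with an array left out. In sham against normal skin it was −0.344 with that block and −0.045 to 0.195 with an array left out, and in lymphedema against sham skin 0.0675 with that block and −0.183 to 0.0675 with an array left out. Nfkbia was −0.0873 in lymphedema against normal and −0.428 in sham against normal skin with the division as a block, −0.134 to 0.393 in sham against normal and −0.0828 to 0.445 in lymphedema against sham skin with an array left out. Of 453 values under alternatives for 24 differences, 417 kept their direction and side of the threshold.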

Other observations

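Sham array 3 read apart from the other 2 sham arrays for several genes of the route. It measured 2.13 for Nfkbia against 1.07 and 1.37, 1.73 for Tnfaip3 against 0.354 and 0.287, and 0.881 for Nfkbib against 0.102 and 0.132. For the ligand genes it measured 2 for S100a9 against −1.54 and −0.616, 1.29 for Tnc against −1.44 and −1.43, and 0.179 for Bgn against −0.912 and −1.23. Myd88 did not follow, at 1.79 on sham array 3 against 2.22 and 1.96, and neither did Tlr4, at 0.598 against 0.599 and 0.375. Without this array 484 genes were higher and 139 lower between lymphedema and normal skin, against 245 and 52 with it, and 77 were higher and 19 lower between lymphedema and sham skin, against 1 and 1 with it.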
